A study of Mus musculus with 28 samples.

Results

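Calorie restriction (CR) in the mouse ovary at 6 months of age is described here from the arrays whose titles name the ovary and 6 months, which are 4 of the 28 arrays of the series. Both groups were C57BL/6 females, each array holding the whole ovary of 1 animal. The 2 CR animals ate a restricted diet from 14 weeks of age, and the 2 AL animals ate freely (ad libitum). By the study's methods, CR mice were fed at a set time each morning and were not fed on the final day. AL mice had food at all times, so the time of feeding and the last fast went with the diet. Every array also carried a reference RNA pooled from mouse cell lines, and a value is the log2 ratio of ovary to reference for 1 gene. In each diet, replicate 1 was on the older and replicate 2 on the newer of the array versions used. The question addressed is which transcripts of the young adult ovary differ between the diets.

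As background, the ovary holds follicles, in which granulosa and theca cells surround an oocyte, and corpora lutea, which form from the follicle after ovulation and secrete progesterone. Gonadotropins drive this cycle, and the corpus luteum later regresses as progesterone is broken down and matrix is remodelled. The content of luteal tissue therefore changes through the oestrous cycle and with ovulation, and food restriction is known to slow the cycle in rodents. Neither the sample labels used here nor the study's text gives the stage of the cycle of any animal. Stage and diet therefore cannot be told apart.

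The median Cy3 signal was 1.35 and 1.38 times the background on CR replicates 1 and 2, and 1.35 and 1.46 times on AL replicates 1 and 2. The number of arrays limits the precision. In bulk RNA of a whole organ, fewer cells of a type and less RNA per cell cannot be told apart.

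CR replicate 2 held RNA of the exocrine pancreas, an organ that also lies in the abdomen. The summed Cy3 intensity, after normalization, of 22 measured of 30 listed acinar genes was 5848 in CR replicate 1 and 19958 in CR replicate 2. It was 5502 in AL replicate 1 and 5349 in AL replicate 2. CR replicate 2 was 2.41 times the highest of the other ovary arrays of the series, and 13 of the 22 genes had their highest ovary value there. Over all genes, 10 were at least 2-fold above all 13 other ovary arrays in CR replicate 2, and 5 of them were in the pancreas lists. Amy2, a pancreatic amylase, stood at 2.11 and 4.40 in CR replicates 1 and 2 and at 1.06 and 0.96 in AL replicates 1 and 2. Cela2a, an elastase of pancreatic juice, stood at 0.43 and 3.11 under CR and at 0.21 and 0.41 under AL. Both genes were far higher in CR replicate 2 than in the other 3 animals, and Amy2 was also higher in CR replicate 1 than in either AL animal. The brightest acinar probe by mean signal, Ctrb1, a chymotrypsinogen, had 1023 and 1169 intensity units in CR replicates 1 and 2 and 1081 and 1121 in AL replicates 1 and 2, so that its level did not set CR replicate 2 apart. None of the first 4 measured acinar genes lay at the level of the negative control spots in all 4 animals. In the islet list all 10 genes were measured, their summed intensity was 1738 in CR replicate 2 against 1648, 1704 and 1756 in the others, and Ins1 was the brightest. No member of either list was called, and the acinar median difference of 0.28 was 0.01 without CR replicate 2. Cela3b, another acinar elastase, differed by 0.49. Ctrb1 differed by 0.15. Among islet genes, Ins1 stood at 0.36 and 0.63 under CR and at 0.11 and 0.25 under AL, highest in CR replicate 2, a difference of 0.32 (limma adjusted p = 0.586). Ins2, Gcg and Sst differed by -0.09, 0.10 and -0.07, and the islet median of 0.03 ran from -0.01 to 0.06 with 1 of the 4 arrays left out.

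**Figure D1:**
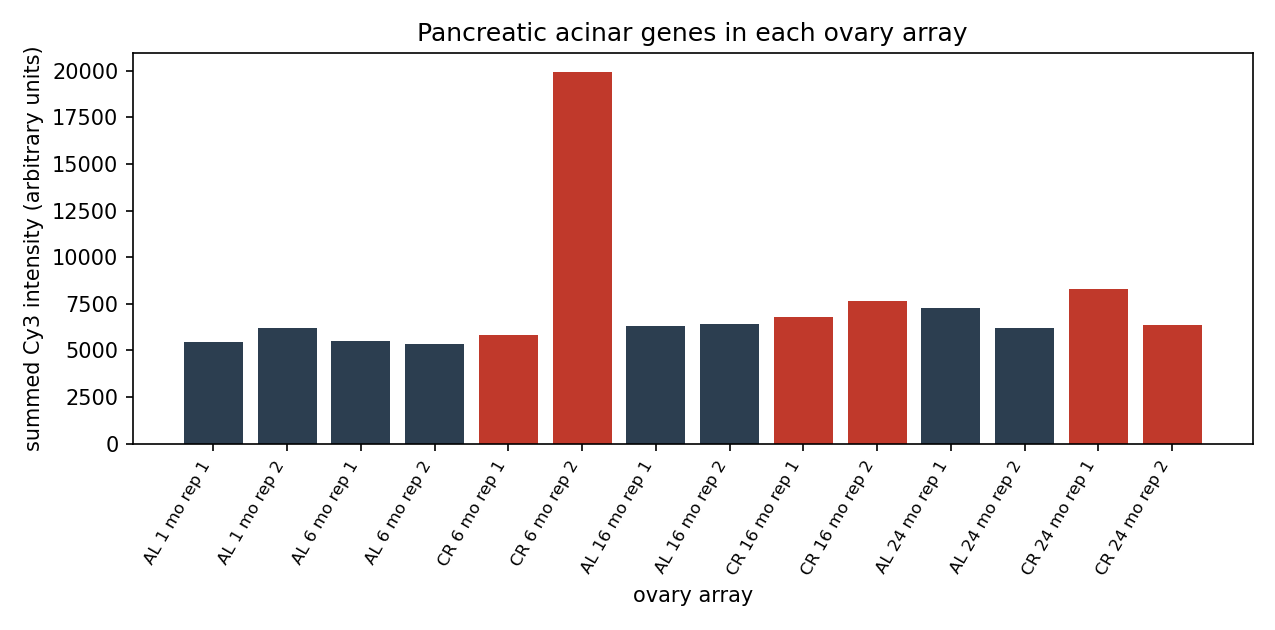
Bars give the summed normalized Cy3 intensity of 22 pancreatic acinar genes in arbitrary units, from 0, for each of the 14 ovary arrays, with CR in red and AL in dark blue. CR replicate 2 at 6 months, at 19958, is above every other ovary array.

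Of 35332 genes tested, 52 were called at 6 months, 50 lower and 2 higher under CR. A call means an adjusted p (limma, Benjamini-Hochberg) of at most 0.1 and a difference of at least 1.5-fold, and 0.147% of genes passed it, 0.142% lower and 0.00566% higher. Before adjustment, 3530 genes had a p under 0.05, of which 916 also differed by at least 1.5-fold, 660 of them lower. Called genes with a name numbered 26, and the other 26 were probes without one. For all 50 lower calls the CR array was below the AL array within each array version, and for both higher calls it was above. The calls were picked for their difference on these same arrays, so this order is no separate result.

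The count rests on how the step between array versions is handled. That step was estimated from the same arrays, and the test above does not charge a degree of freedom for it. With 1 fewer residual degree of freedom, a setting chosen after these results were seen, limma called 0 genes, with 806 at an unadjusted p under 0.05 and at least 1.5-fold and a lowest adjusted p of 0.204. With array version as a block, limma called 0 genes, with 855 at that p and fold. It was also 0 without CR replicate 2, the animal with pancreas RNA (687 at that p and fold), and without either CR animal of 16 months (861 each). Without AL replicate 2 it was 1291, and without AL replicate 1 it was 112. Leaving out either AL animal of 1 month gave 4, either AL animal of 16 months 33, and either CR animal of 24 months 24. The calls named below are therefore those of a single way of counting the error, and no call of the 52 remained with the version as a block.

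**Figure D2:**
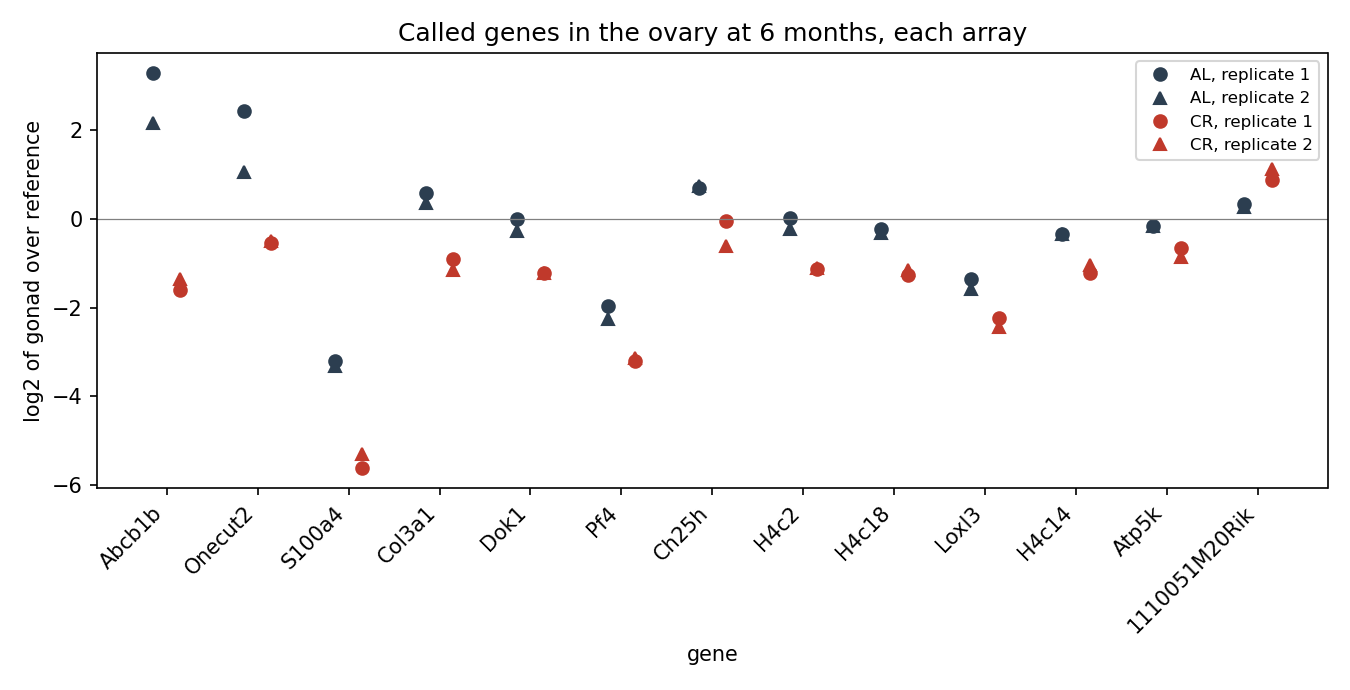
Points give the log2 ratio of ovary to reference in each of the 4 animals at 6 months for the called genes among those described, apart from LOC genes, CR in red and AL in dark blue, circles for replicate 1 and triangles for replicate 2. Both CR points lie below both AL points for each gene but 1110051M20Rik.

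Of 17 measured of 18 genes of the corpus luteum, 1 was called, 13 lay below 0 and 3 above. Over all 35332 genes tested, 17732 lay below 0 and 16531 above. Of the 14234 with a name, 8164 lay below and 5720 above, beside which such counts of every list stand. Abcb1b, a drug efflux transporter of the luteal list, stood at -1.60 and -1.36 in CR replicates 1 and 2 and at 3.29 and 2.17 in AL replicates 1 and 2. Both CR animals were far below both AL animals. The difference was -4.21 (standard error 0.51, limma adjusted p = 0.0864), -4.89 within the older and -3.53 within the newer array version. Calls over all genes were 0.147%. With the version as a block its adjusted p was 0.204. A dimmer second probe of Abcb1b differed by -0.71, so the size of the difference depends on the probe.

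Akr1c18, the enzyme that inactivates progesterone when the corpus luteum regresses, stood at 0.58 and 0.81 under CR and at 4.50 and 4.27 under AL. Sfrp4, a secreted Wnt inhibitor made by luteal cells, stood at 0.27 and 0.51 under CR and at 4.50 and 3.78 under AL. Neither set of values overlapped between the diets, and neither gene was called. The differences were -3.69 (standard error 0.64, limma adjusted p = 0.111) for Akr1c18 and -3.75 (standard error 0.83, limma adjusted p = 0.188) for Sfrp4. A second, dimmer probe of Akr1c18 differed by -3.29, and when the probe with the lowest p in an F test between the 7 groups stood for each gene, Akr1c18 was called (limma adjusted p = 0.0484). Ptgfr, the receptor through which prostaglandin F2 alpha ends the life of the corpus luteum, differed by -0.42. The luteal list had a median difference of -0.88, against -0.01 over all genes tested and -0.04 over genes with a name. In 10 of the 17, both CR animals were below both AL animals, which held for 23.2% of all genes and 28.0% of those with a name. The median was -0.84 within the older and -0.79 within the newer version, and -0.50 without CR replicate 2 and -1.13 without CR replicate 1. The summed intensity of the list was 81849 and 61232 in CR replicates 1 and 2 and 159514 and 110497 in AL replicates 1 and 2, with Hsd3b1 the brightest, at 50462 and 32147 under CR and 61958 and 54125 under AL. The largest part of the CR sums is thus 1 gene, whose ratio to the reference did not lie lower under CR. The part of luteal tissue in the other differences was not tested.

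The enzymes of steroid hormone synthesis had no call among 20 measured of 21. Star, which carries cholesterol into the mitochondrion, stood at 2.90 and 3.05 under CR and at 4.78 and 4.09 under AL. Cyp11a1, which makes pregnenolone from cholesterol, stood at 3.32 and 2.35 under CR and at 4.21 and 4.25 under AL. For both genes the CR animals were below the AL animals, by -1.46 and -1.39. Cyp17a1, the theca cell enzyme of androgen synthesis, stood at 4.06 and 2.65 under CR and at 1.85 and 3.70 under AL, and these values overlapped. Fdx1, the electron donor of Cyp11a1, differed by -1.12 and was not called (limma adjusted p = 0.288). Its difference was -0.59 without CR replicate 2, the animal with pancreas RNA, and -1.64 without CR replicate 1. Hsd3b1, which makes progesterone from pregnenolone, stood at 4.43 and 4.33 under CR and at 4.08 and 4.26 under AL. Here the CR animals were above the AL animals, by 0.20 (limma adjusted p = 0.653), and 2 dimmer probes differed by 0.36 and -0.12. The list thus held members on both sides, 11 below 0 and 8 above, with a median of -0.13 that ran from -0.25 to -0.03 with 1 of the 4 arrays left out.

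Cholesterol synthesis and uptake had 1 call among 22 measured of 30, against 0.147% of all genes. Ch25h, which makes the oxysterol 25-hydroxycholesterol, stood at -0.05 and -0.60 in CR replicates 1 and 2 and at 0.70 and 0.73 in AL replicates 1 and 2. The AL animals were alike and both CR animals were below them. The difference was -1.04 (standard error 0.15, limma adjusted p = 0.0864). Dhcr7, the last enzyme of the pathway, stood at 0.96 and 0.17 under CR and at 3.01 and 1.22 under AL, and it was not called. Its AL animals lay further apart than the means of the diets did. Sqle, Fdps and Fdft1, earlier in the pathway, differed by -0.43, -0.80 and -0.31. The list had 17 members below 0 and 5 above, with a median of -0.18, and -0.28 to -0.11 with 1 of the 4 arrays left out.

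Hormone receptors had no call among 17 measured of 23, with a median of -0.08, and -0.16 to -0.01 with 1 of the 4 arrays left out. Lhcgr, the receptor of luteinizing hormone, stood at 1.66 and 0.64 under CR and at 1.49 and 2.21 under AL. Prlr, the prolactin receptor, stood at 5.57 and 4.92 under CR and at 5.58 and 5.43 under AL. The values of both overlapped. Rxfp1, the relaxin receptor, stood at 3.73 and 3.18 under CR and at 1.69 and 1.62 under AL. Both CR animals were above both AL animals, by 1.80 (standard error 0.41), and the gene was not called (limma adjusted p = 0.193). Fshr, the receptor of follicle-stimulating hormone, and Esr2, an oestrogen receptor, differed by -0.08 and 0.39. Esr2 has no value in CR replicate 1, so its difference rests on CR replicate 2, the animal with pancreas RNA, and it was 0.83 without AL replicate 2. The hormones and growth factors of the follicle had no call among 17 measured of 19, and their median of -0.05 ran from -0.09 to 0.12 with 1 of the 4 arrays left out. Inhba, Inhbb and Fst differed by -0.01, -0.05 and 0.18, with -0.16 at a dimmer probe of Fst. These are means of opposite values in the array versions. Inhba was 1.06 within the older and -1.08 within the newer version, Inhbb -0.22 and 0.12, and Fst 0.65 and -0.29.

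Markers of the follicle had no call. Inha, the inhibin alpha chain of granulosa cells, stood at 4.82 and 4.73 under CR and at 4.76 and 5.16 under AL. Foxl2, a transcription factor of granulosa cells, stood at 4.79 and 4.67 under CR and at 4.91 and 4.65 under AL. The values of both overlapped. The granulosa list had no call among 17 measured of 18 and a median of -0.05 (-0.20 to -0.11 with 1 of the 4 arrays left out), and the theca list none among 14 of 17 and a median of 0.03 (-0.08 to 0.15). Ptch1 and Gli1, of hedgehog signalling in theca cells, differed by 0.01 and 0.30. For oocytes, 35 of 37 genes were measured, none was called and the median was -0.05, but it was -0.25 within the older and 0.12 within the newer version, and -0.26 to 0.14 with 1 of the 4 arrays left out. Zp3, a protein of the coat of the oocyte, stood at 1.08 and 1.44 under CR and at 1.84 and 1.43 under AL, and Zp1, Zp2 and Gdf9 differed by -0.14, -0.14 and -0.28, where Gdf9 has no value in AL replicate 2 and was 0.06 with the version as a block. Inha, Foxl2 and Zp3 were above the negative control spots in all 4 animals. Genes of the ovulatory response to luteinizing hormone had no call among 22 of 29 and a median of -0.26 (-0.33 to -0.12). Ptgs2, Areg and Ereg of that list differed by -0.10, -0.25 and -0.29, and Btc was at the level of the negative control spots.

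Collagens and other matrix genes lay below AL in most members. Col3a1, a fibrillar collagen, stood at -0.90 and -1.16 in CR replicates 1 and 2 and at 0.59 and 0.35 in AL replicates 1 and 2. The pairs did not overlap, and the difference was -1.50 (standard error 0.24, limma adjusted p = 0.0914), close in the array versions, at -1.49 and -1.51. Col1a1, another fibrillar collagen, stood at -1.64 and -2.37 under CR and at -0.04 and -0.42 under AL. It differed by -1.78 and was not called (limma adjusted p = 0.151). Of 31 measured of 40, 1 was called, 25 lay below 0 and 6 above, and in 20 both CR animals were below both AL animals, which held for 23.2% of all genes and 28.0% of those with a name. The calls over all genes were 0.147%. The median was -0.50, and -0.69 to -0.37 with 1 of the 4 arrays left out. Col1a2 and Col4a1 differed by -0.94 and -0.86. Loxl3, an enzyme that cross-links collagen, was called outside the list, with -2.24 and -2.43 under CR and -1.35 and -1.58 under AL, a difference of -0.87 (limma adjusted p = 0.0864).

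Matrix proteases and their inhibitors had no call among 25 measured of 28 and a median of -0.18. Timp1, an inhibitor of metalloproteinases, stood at -0.92 and -1.05 under CR and at 1.47 and 0.20 under AL. Mmp2, a gelatinase, stood at 0.11 and 0.14 under CR and at 1.22 and 0.69 under AL. Both were below AL in both CR animals, by -1.82 (limma adjusted p = 0.108) and -0.83 (limma adjusted p = 0.224). With probes chosen by that F test, Timp1, which has 1 probe, was called (limma adjusted p = 0.0973). Mmp9, Mmp3 and Mmp14 differed by -0.83, -0.60 and -0.30, and a dimmer Mmp9 probe by -0.27. The Mmp3 values overlapped between the diets, and its difference was 0.03 without AL replicate 1 and -1.22 without AL replicate 2. Mmp14 has no value in AL replicate 1, and its difference was -0.07 without CR replicate 2. The median of the list was -0.38 within the older and -0.08 within the newer version, and -0.41 to 0.00 with 1 of the 4 arrays left out.

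S100 proteins, small calcium-binding proteins, had 1 call among 13 measured of 14, against 0.147% of all genes. S100a4 stood at -5.62 and -5.30 in CR replicates 1 and 2 and at -3.19 and -3.32 in AL replicates 1 and 2. The animals of a diet were close together and the diets far apart. The difference was -2.20 (standard error 0.23, limma adjusted p = 0.0539). S100a6 stood at -2.48 and -2.87 under CR and at 0.52 and -0.93 under AL, with a wide spread within AL, and was not called (limma adjusted p = 0.167). S100a8 and S100a9, which neutrophils hold in amount, differed by -1.02 and 0.32. A dimmer probe of S100a9 differed the other way, by -1.78, so the direction of this gene depends on the probe. The median of the list was -0.49, with -0.85 within the older and -0.33 within the newer version, and it was -0.24 without AL replicate 1 and -0.98 without AL replicate 2.

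Inhibitors of cyclin-dependent kinases, which hold back the cell cycle, had no call among 8 measured of 8, and 7 lay below 0. Cdkn1b, expressed in luteal cells as they leave the cell cycle, stood at 0.09 and -0.01 under CR and at 1.06 and 0.78 under AL. Cdkn2b stood at -1.77 and -1.82 under CR and at 0.41 and -0.49 under AL. Both were below AL in both CR animals, with limma adjusted p of 0.135 and 0.174. Cdkn1a, Cdkn1c and Cdkn2a differed by -1.07, 0.24 and -0.14, with -0.16 at a dimmer probe of Cdkn1a, and Cdkn2a was above the negative control spots in 1 animal of each diet. The list median was -0.45, and -0.68 to -0.44 with 1 of the 4 arrays left out. Proliferation genes had no call among 26 of 30, and their median differed in sign between the versions, -0.48 in the older and 0.26 in the newer. Mki67, Top2a, Cdk1 and Ccnb1 differed by -0.36, -0.32, -0.12 and -0.04. Wnt pathway genes had no call among 27 of 34 and a median of -0.14, which was 0.02 without AL replicate 1 and -0.39 without AL replicate 2. Wnt10a, Wnt10b, Wnt2 and Wnt2b differed by -1.60, -1.10, -0.32 and 0.52. Wnt10a and Wnt10b were -0.83 and -0.46 without AL replicate 1, and -2.38 and -1.74 without AL replicate 2.

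Probes for histone H4 genes were among the calls. H4c2, H4c14 and H4c18 encode the same protein from near-identical transcripts, and which of them a probe read is uncertain. H4c2 stood at -1.12 and -1.10 under CR and at 0.02 and -0.22 under AL. H4c14 stood at -1.22 and -1.04 under CR and at -0.34 and -0.33 under AL. H4c18 stood at -1.26 and -1.15 under CR and at -0.22 and -0.32 under AL. In all 3 the CR animals were below the AL animals, by -1.01, -0.79 and -0.94, each with a limma adjusted p of 0.0539. At 24 months H4c2 and H4c18 differed the other way, by 0.34 and 0.38, and on the values here the rule of the study's methods on opposite changes at another age takes both out. The study itself names H4c18 and H4c14, as Hist1h4m and Hist2h4, among its genes for young CR ovaries.

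Many of the called probes share sequence. The probes of 23 called genes held a stretch of 12 bases that was also in the probe of another called gene, 20 of them apart from the H4 probes. In 1000 draws of 52 uncalled genes, alike in signal and in the share with a name, the count had a median of 0 and reached 6 at most. The draws were added after the count was seen and took uncalled genes only, so they describe the count and do not test it. Of the called probes, 9 held some stretch of 12 bases of the 4 probes of Gapdh, a glycolytic enzyme with many processed pseudogenes. The stretch was not the same in all 9, each was lower under CR, and 0.122% of all genes' probes held one. The probe of Gapdhs, the sperm form of the enzyme, is 1 of the 9, as noted after its values were seen. Gapdh itself stood at -1.97 and -2.03 under CR and at -1.27 and -1.56 under AL and was not called, at -0.59 (limma adjusted p = 0.193). Another of its probes, the one that the F test between the 7 groups takes, differed by -0.69 and is called under that choice (limma adjusted p = 0.0812). LOC238091 and LOC219102, predicted genes among the largest called falls, differed by -0.98 and -0.95. Whether these probes read 1 transcript was not tested.

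Further called genes belonged to no list. Onecut2, a transcription factor, stood at -0.54 and -0.49 under CR and at 2.43 and 1.05 under AL. Dok1, an adaptor of tyrosine kinase signalling, stood at -1.22 and -1.23 under CR and at -0.01 and -0.27 under AL. Pf4, a chemokine of platelets, stood at -3.20 and -3.13 under CR and at -1.96 and -2.25 under AL. All 3 had both CR animals below both AL animals, and the AL animals of Onecut2 lay further apart than its CR animals. The differences were -2.25, -1.09 and -1.06, each with a limma adjusted p of 0.0864. A second probe of Onecut2 differed by -2.20. The called rise with a name was 1110051M20Rik, at 0.88 and 1.13 under CR and 0.34 and 0.26 under AL, a difference of 0.70 (limma adjusted p = 0.0864).

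The study names further genes for ovaries of young CR animals, and none of those that follow was called here. Pigt, Sdc1, Sparc, Adamts4, Mif, Lamc1 and Acox3 differed by -1.35, -1.08, -0.97, -0.71, -0.54, -0.50 and -0.37. Sdc1, Sparc and Mif were -0.52, -0.63 and -0.18 without AL replicate 1, and -1.64, -1.31 and -0.89 without AL replicate 2. Pigt was -0.72 without CR replicate 2 and -1.99 without CR replicate 1. The histone genes H2ac1, H2bc15 and H4c4 differed by -0.75, -0.89 and -0.89, and Kat6a, a histone acetyltransferase, by -0.42. All of these genes had both CR animals below both AL animals, which held for 23.2% of all genes and 28.0% of those with a name. The study picked them as lower from these same arrays, so this order is no separate result. Drp2 differed by 0.37 with both CR animals above, and Olr1 and Adamts12, at 0.00 and 0.03, overlapped at their brightest probes. Dimmer probes differed by -0.52 for Olr1 and by -0.74 and -0.04 for Adamts12. The study took the probe with the most significant change, and the F test choice takes those at -0.52 and -0.74. Under that choice Olr1 passed the limit on adjusted p (limma adjusted p = 0.0779) but not that on fold, and Adamts12 did not pass that on adjusted p (limma adjusted p = 0.234). Drp2 was above the negative control spots in only 1 AL animal.

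Circadian clock genes had no call among 18 measured of 22, with 13 above 0 and a median of 0.23. Of 14234 genes with a name, 5720 lay above 0. Per2, a repressor of the clock, stood at 0.96 and 0.86 under CR and at -0.69 and -0.79 under AL. Cry1, its partner, stood at 0.80 and 0.74 under CR and at 0.21 and 0.27 under AL. In both, the CR animals were close together and above the AL animals, by 1.65 (limma adjusted p = 0.198) and 0.53 (limma adjusted p = 0.244). In 7 members both CR animals were above both AL animals, which held for 20.9% of all genes and 17.0% of those with a name. At dimmer probes Per2 differed by 0.29 and Cry1 by 0.01, so the size of both differences depends on the probe. Per1 and Per3 differed by 0.11 and 0.69. The median was 0.09 within the older and 0.50 within the newer version, and 0.06 to 0.55 with 1 of the 4 arrays left out. The study names its regular feeding schedule as a possible source of higher Per2 and Per3. Time of feeding and calorie intake cannot be told apart here.

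Genes that respond to glucocorticoids and fasting had no call among 23 of 25 and a median of 0.02, and -0.03 to 0.04 with 1 of the 4 arrays left out. Tsc22d3, induced by glucocorticoids, stood at 2.17 and 2.34 under CR and at 1.43 and 1.47 under AL. Sgk1, a kinase that they also induce, stood at -1.76 and -2.41 under CR and at 0.30 and -0.52 under AL. The first was above and the second below AL in both CR animals, by 0.81 and -1.98. Fkbp5, also induced by them, differed by -0.69. Only the CR animals went without food on the final day, and this fast cannot be told apart from the long-term diet. The insulin and growth hormone axis had no call among 15 of 19 and a median of -0.14, and Igf1, its main growth factor, stood at 1.26 and 1.15 under CR and at 1.89 and 1.30 under AL. Igf2, Igf2r and Igfbp1 differed by 0.03, -0.03 and 0.27, and the median with 1 of the 4 arrays left out was -0.11 to -0.03.

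Interferon response genes lay below 0 in all 19 measured of 22, with no call and a median of -0.51. Of 14234 genes with a name, 8164 lay below 0. Isg15, a ubiquitin-like protein, stood at -1.99 and -2.14 under CR and at -0.23 and -1.05 under AL. Iigp1, a GTPase of cell defence, stood at 0.10 and 0.32 under CR and at 1.79 and 1.57 under AL. Both were below AL in both CR animals, with limma adjusted p of 0.152 and 0.237. Ifit1 and Ifit2 differed by -1.05 and -0.25. Dimmer probes of Isg15 and Ifit1 differed less, by -0.73 and -0.05. The median was -0.72 within the older and -0.25 within the newer version, and -0.70 to -0.29 with 1 of the 4 arrays left out.

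Lists of other immune cells had no call. In the list of neutrophils and the acute phase, all 18 genes were measured, the median was -0.19 (-0.40 to -0.12 with 1 of the 4 arrays left out), and in 10 both CR animals were below both AL animals, against 23.2% of all genes and 28.0% of those with a name. Saa1, an acute phase protein, stood at -3.60 and -3.62 under CR and at -2.60 and -1.75 under AL (limma adjusted p = 0.174), and Saa2 differed by -1.33. The other immune lists changed sign with the arrays used. The macrophage median of -0.07 was 0.21 without CR replicate 2, and Cd68, Csf1r, Adgre1 and Lyz2 differed by -0.05, -0.20, -0.45 and 0.98, with 0.47 and 0.67 at dimmer probes of Lyz2. The median of B and plasma cells, 0.14, was -0.12 without CR replicate 2 and -0.11 without AL replicate 1. Cd79a, Cd79b and Ms4a1 differed by -0.13, -0.07 and 0.35, with 0.21 and -0.17 at dimmer probes of Cd79a and Ms4a1. Cd79b was -0.64 without CR replicate 2 and 0.50 without CR replicate 1. The median of T and NK cells, -0.04, was 0.02 without AL replicate 2, and Cd3e, Cd3d, Cd3g and Cd2 differed by 0.22, -0.11, -0.04 and 0.01.

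Mitochondrial electron transport had 1 call among 56 measured of 70, and 54 members lay below 0, against 8164 of 14234 genes with a name. Atp5k, a subunit of ATP synthase, stood at -0.65 and -0.86 under CR and at -0.15 and -0.16 under AL. Both CR animals were below both AL animals, by -0.60 (standard error 0.08, limma adjusted p = 0.0864), and by -1.08 at a second probe. At 24 months it differed by 0.34, the other way, and on the values here the study's rule on opposite changes takes it out. In 43 members both CR animals were below both AL animals, which held for 23.2% of all genes and 28.0% of those with a name, while 0.147% of all genes were called. Cox4i1, Cox5a, Cox5b and Cox6a1, subunits of cytochrome c oxidase, differed by 0.17, -0.73, -0.25 and -0.26. The Cox6a1 probe was saturated in 1 AL animal, so that its difference is not exact, and 2 dimmer probes differed by -0.33 and -0.98. The list median was -0.28, with -0.36 and -0.31 within the versions and -0.41 to -0.24 with 1 of the 4 arrays left out. The housekeeping genes, listed as controls, had a median of -0.29 among 10 measured of 13 (-0.33 and -0.28 within the versions, -0.29 to -0.16 with 1 array left out), and none was called. In 6 of these 10 both CR animals were below both AL animals, against the same 23.2% and 28.0%. In 2 both were above, which held for 20.9% of all genes and 17.0% of those with a name. Ppia and Hprt differed by 0.18 and -0.09, and Actb was saturated in both AL animals, with -0.54 at a dimmer probe.

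Markers of further cell types were read as well. The study reports that fat around the ovary was taken off at dissection. Adipoq, a hormone of fat cells, stood at 2.35 and 3.05 under CR and at 2.41 and 0.52 under AL. The values overlapped, and AL replicate 2 was lowest. The fat cell list had no call among 22 of 23 and a summed intensity of 13617 and 21472 in CR replicates 1 and 2 and 10466 and 8054 in AL replicates 1 and 2, with Fabp4 the brightest. Its median of 0.23 was 0.05 within the older and 0.61 within the newer version, and 0.09 to 0.56 with 1 of the 4 arrays left out. Retn, Cidec and Plin1 differed by 0.40, 1.33 and -0.32, with 0.08 at a dimmer probe of Cidec. Oviduct genes had no call among 14 of 18, and their median was -0.42 without AL replicate 2 and 0.53 without AL replicate 1. Pax8, Pax2, Krt18 and Cdh1 differed by 0.31, -0.17, 0.09 and 0.32, with -0.07 and -0.35 at dimmer probes of Pax8 and Krt18. The surface epithelium had no call among 8 of 11 and a median of -0.07 (-0.39 to 0.29), with Upk1b, Msln, Krt7 and Krt8 at -0.08, -0.10, -0.14 and -0.23.

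Vessels and blood had no call either. Endothelial genes had a median of 0.00 among 15 of 16 (-0.16 to 0.09 with 1 of the 4 arrays left out), and Pecam1, Cdh5, Kdr and Tek differed by 0.31, 0.13, 0.00 and 0.12. Lyve1, of lymphatic endothelium, stood at 1.85 and 1.59 under CR and at 0.69 and 0.24 under AL (limma adjusted p = 0.19). Its list, 6 measured of 7, had a median of 0.12 (0.10 to 0.14). In 5 of the 6, Lyve1 among them, both CR animals were above both AL animals, which held for 20.9% of all genes and 17.0% of those with a name. Prox1 and Flt4 differed by 0.08 and 0.09, and Pdpn, the member below, by -0.60. Of 8 red blood cell genes 2 were measured, Slc4a1 and Epb42, at 0.03 and 0.07, with a median of 0.05 (-0.04 to 0.13).

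**Figure D3:**
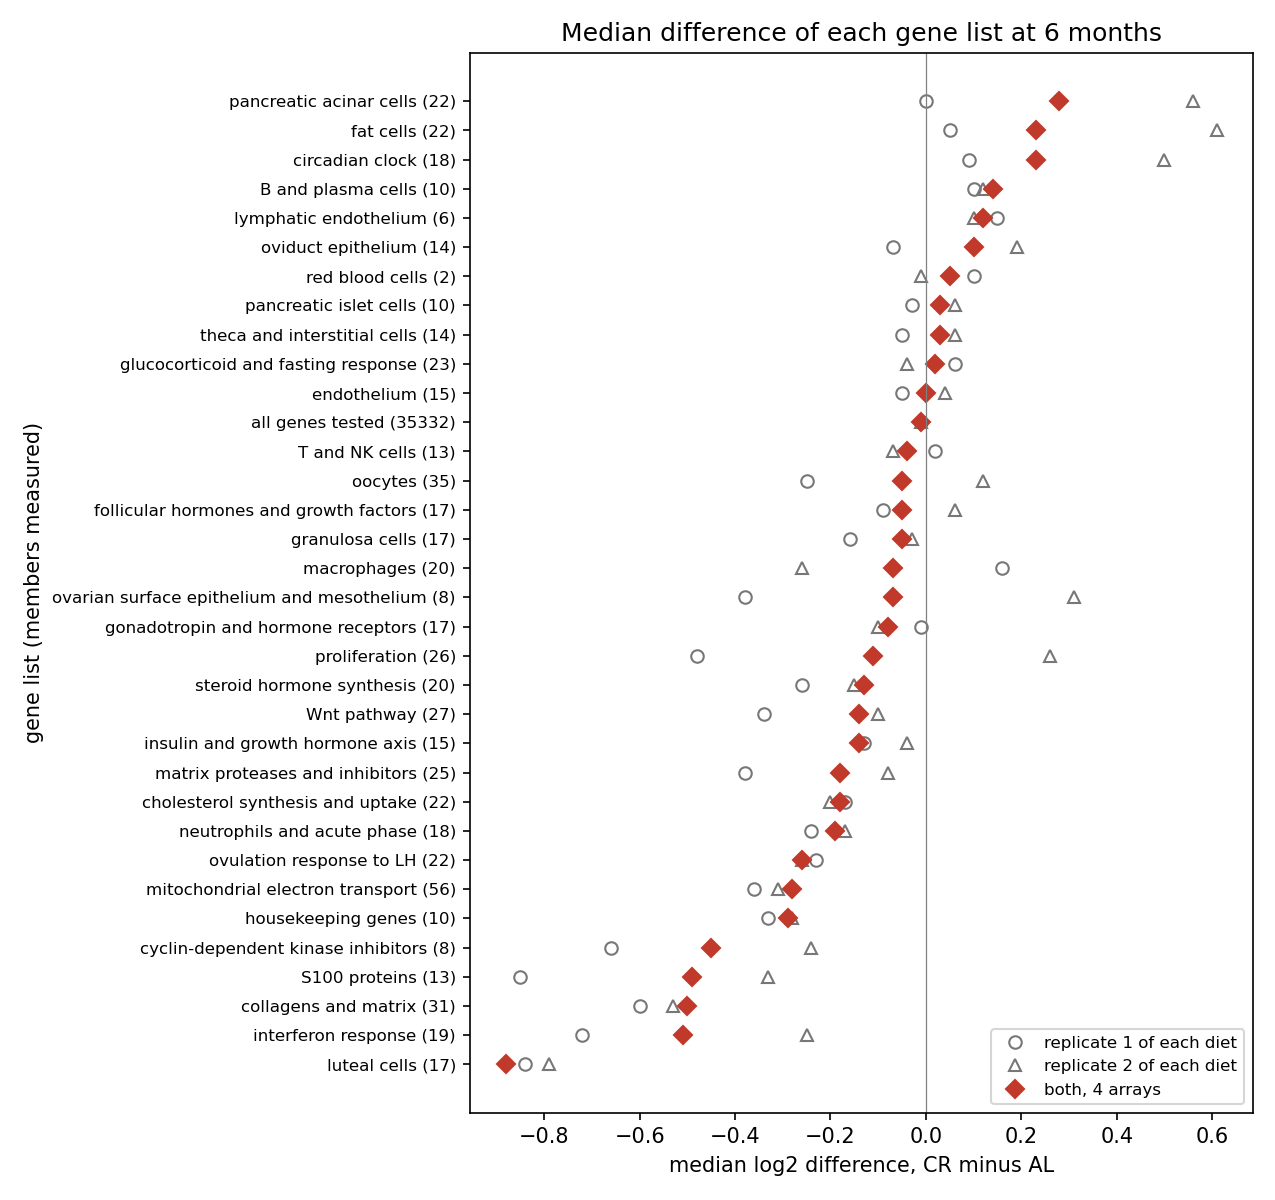
Each line is a gene list with its number of measured members, and the horizontal axis is the median log2 difference, CR minus AL, at 6 months, over all 4 arrays (diamonds) and within replicates 1 (circles) and 2 (triangles) of the diets. Over all 4 arrays the luteal list has the lowest median, -0.88, and the median over all genes tested is -0.01. Within replicates 1 the S100 list, at -0.85, lies just below the luteal list, at -0.84.

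The diets were also compared at 16 and 24 months, with 4 ovary arrays at each age. At 16 months 3 genes were called (0.00849%), and at 24 months 7 (0.0198%). The difference between the CR effect at 6 months and its mean at the later ages was tested in the same limma fit, and 0 genes were called of 35330 (0%), with 2260 at an unadjusted p under 0.05, so no gene is given as particular to 6 months. Without AL replicate 2 of 6 months that count was 310, without AL replicate 1 it was 84, and without CR replicate 1 it was 21. Without an animal of the later ages it was 16 (CR replicate 2 of 24 months), 8 (CR replicate 1 of 24 months), 7 (AL replicate 1 of 16 months) and 1 (AL replicate 2 and CR replicate 2 of 16 months, each). Abcb1b differed by -2.32 at 16 and -0.62 at 24 months. Per2 differed by 1.58 and 1.56, close to its 1.65 at 6 months. The luteal list had a median of -0.22 at 16 and -0.32 at 24 months, and the matrix list -0.16 and 0.04.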

How the data were processed

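Ovary RNA was labelled with Cy3 and reference RNA with Cy5. The deposited intensity values were read by the authors with Agilent Feature Extraction A.7.5.1 and are not normalized. The deposited tables hold log10 values. They equal the log10 ratio of ovary to reference plus a constant per probe for 99.2% and 98.8% of probes within 0.01 in the older and newer array version, so scale and direction are known and what the constant centres on stays unknown. Their column medians were 3.04 and 3.00 for CR and 3.06 and 3.02 for AL replicates 1 and 2 at 6 months, and 2.99 to 3.06 over the 14 ovary arrays. The 14 testis columns were not used.

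Background was corrected with normexp (offset 50) in limma 3.58.1 on R 4.3.3, and log2 ratios were normalized by loess within arrays. Cy3 intensities, single or summed over a list, were instead quantile normalized between the arrays of a version. They were then moved by the step between versions in the same way as the ratios. Control spots and outliers were left out. Probes were matched by sequence, 38270 on both versions, and each probe's values on the older version were moved by its median step between versions, taken over the groups with both. A name came from the paper's tables or a RefSeq table (GRCm38.p6), which matched 14749 of 19671 accessions. A gene was its brightest probe, and probes without a name counted as genes. The fit had 7 group means over 14 ovary arrays with 7 residual degrees of freedom, and it counts none for the shift. Slides held 1 array each, and the study's methods tie the batches of ovary replicates to the array version. Tables were made with Python 3.11.15, pandas 2.3.3 and numpy 2.4.6, and the steps were tested on simulated data.

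Genes named are taken from 153, not all of them described, which are the 12 largest called rises and falls, called and first 4 measured members of each of 33 lists, and genes the study names for young CR ovaries, of which Hist1h4h was not measured. Gapdh is also a list member. Which of them have values for every animal, and not the difference alone, was chosen after their values were seen. Promoters were to be shown for called steroid or clock genes, and none was called. Members and lists were chosen with earlier results of these data known. Alternatives covered signals, normalization, dim probes, version, error variance, probe choice and arrays left out, and 2 were chosen after seeing the data.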

Additional observations from a re-analysis of the deposited data

How the results depend on the processing

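The count of 52 called genes at 6 months (2 higher, 50 lower) was 5 (0 and 5) with the scanner's signals, 9 (0 and 9) with the deposited tables, 7 (1 and 6) with the Cy3 channel alone 4 (0 and 4) with only the 12 arrays of 6 months and later, 62 (2 and 60) with the probe with the lowest p in an F test between the 7 groups for each gene and 45 (2 and 43) without genes of opposite change at another age. In limma it was 0 with array version as a block, without any adjustment for version and with only the 4 arrays of 6 months, and 0 with the ANOVA error of the methods, a variance kept at or above a moving average. It was 0 with 1 fewer residual degree of freedom, which charges the fit for the shift and was chosen after seeing the data. Unadjusted p under 0.05 held for 2891, 2256, 3763, 972 and 2676 genes in that order. With 1 array left out, the counts ranged from 0 to 1291 (higher 0 to 401, lower 0 to 890). In these fits the lone animal of a group is assumed to vary like the others. Where it is 6 months or older, the median over 5 groups sets the difference of 1 group to 0 for each probe, which lowers its error. The cause of the other changes was not tested.

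The test of 6 months against the later ages called 0 genes, 1 with the scanner's signals and 1 with the deposited tables, and 0 to 310 with 1 array left out. At 16 months the 3 calls became 5 with the deposited tables, 1 without adjustment for version, 0 with version as a block, with the ANOVA error, with the 12 arrays and with 1 fewer degree of freedom, and 0 to 305 with 1 array left out. At 24 months the 7 calls became 3 without adjustment for version and 0 with the ANOVA error, and 8 to 202 with 1 array left out. Settings for 16 and 24 months were added after seeing the data.

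The 15 called genes described kept their sign in 390 of 390 values under other settings and their call in 160, and 33 of the 153 genes taken by the naming rule had a call only under another setting. Many of these settings change only the error, the version step, a filter or the arrays of other ages. For a gene with values in all 4 animals, these leave the difference at 6 months as it was. The genes were also picked for their difference on these same arrays, so the kept sign is no separate result. The flag for well above background held for 96.3% to 100% of probes, so the planned filter on dim probes removed few, and a filter against negative control spots, chosen after seeing this, also left 52 calls. A median signal under 1.5 times background on 13 of 14 arrays limits small differences of dim probes. Of 49 genes taken by the naming rule with more than 1 probe, 15 had another probe at least 0.5 log2 away, a limit set after seeing the values, and the text gives them. Of the same 49, 13 had another probe of opposite sign.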
